A study of Mus musculus with 10 samples.

Results

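The genes described here are 8 enzymes that break down the amino acids lysine and tyrosine or repair a by-product of such reactions: Aass, Aldh7a1 and Gcdh on the lysine side, Hpd, Hgd, Gstz1 and Fah on the tyrosine side, and Rida. They were measured in single Bergmann glial cells, the radial astroglia of the cerebellum whose processes guide granule neurons during development and ensheathe Purkinje cell synapses later. The 8 genes were chosen with the difference between the ages in these same 10 cells already known, so every value given for them is a description of these cells and carries no test of the ages. Their members on the array were the complete probe sets, those with a value in all 10 cells, that the annotation assigns to exactly 1 gene. There were 11 of these for the 8 genes, out of 33964 such probe sets for 17919 genes, and no probe set of the 8 genes was lost to a blank.

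The cells were 5 from mice at postnatal day 30 (P30, adult) and 5 from mice at postnatal day 6 (P6, when granule cells migrate along Bergmann glial fibers). All came from the middle, sagittal part of the cerebellum of a GFAP-GFP reporter line, in which the Gfap promoter drives green fluorescent protein in astroglia, and were picked one by one for strong fluorescence and a bushy shape. The cDNA of each cell was amplified by PCR. The paper kept cDNAs that were positive for astroglial markers such as Gfap, Fabp7 and Slc1a3 and negative for neuronal ones such as Nefl and Mtap2 (Map2). Of those that passed, the 5 per age that did best on test arrays were each hybridized to 1 Affymetrix mouse expression array. The marker lists used below hold some of these screened genes. No animal is named for any cell, so each age counts as 1 sample of 5 cells. The SDs below therefore describe the spread between cells and the amplification, not between mice.

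The deposited values are ratios without a unit. Each was divided by the median of its array and by a median for its probe set, and for 9 of the 11 member probe sets that divisor left the P6 median at 1, within 0.005. For these a ratio of 4 stands for 4 times the median P6 cell. It does not for Hgd 1452986_at and Gstz1, whose P6 medians were 0.815 and 0.0262, and 72.4% of all probe sets had a P6 median of 1. The ratios do not give the level of a gene, so they cannot show which enzyme is abundant or whether a marker of a cell type is present.

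Lysine is degraded mainly through saccharopine in mitochondria: the bifunctional enzyme AASS joins lysine to 2-oxoglutarate and splits the product, ALDH7A1 oxidizes the resulting semialdehyde to aminoadipate, and GCDH later turns glutaryl-CoA into crotonyl-CoA. Tyrosine is first transaminated, after which HPD makes homogentisate, HGD opens its ring, GSTZ1 isomerizes maleylacetoacetate and FAH splits fumarylacetoacetate into fumarate and acetoacetate. RIDA hydrolyzes reactive imines and enamines that arise when other enzymes dehydrate or oxidize amino acids. Both routes are best known from liver and kidney, and inherited loss of ALDH7A1 or GCDH in humans harms the brain.

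The last enzyme of tyrosine breakdown, Fah, and the first of lysine breakdown, Aass, stood far higher in the P30 cells, 65.9-fold and 29.0-fold on the scale of mean log2 ratios. The paper lists both probe sets as absent at P6, so their P6 values may lie near background, which limits what these fold sizes can mean. Rida at 3.80-fold and Gcdh at 3.14-fold were also over 3-fold higher. These made 4 of the 11 probe sets over 3-fold higher at P30, against 6.91% of all probe sets, and 0 of 11 over 3-fold lower, against 12.3% of all. In 5 of 11 every P30 cell lay above every P6 cell, against 1.21% of all, and in 0 of 11 every P30 cell lay below, against 1.96%. In 4 of 11 both held, against 0.857% of all. Because the genes were chosen on this contrast, nothing is read from these shares.

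**Figure D1:**
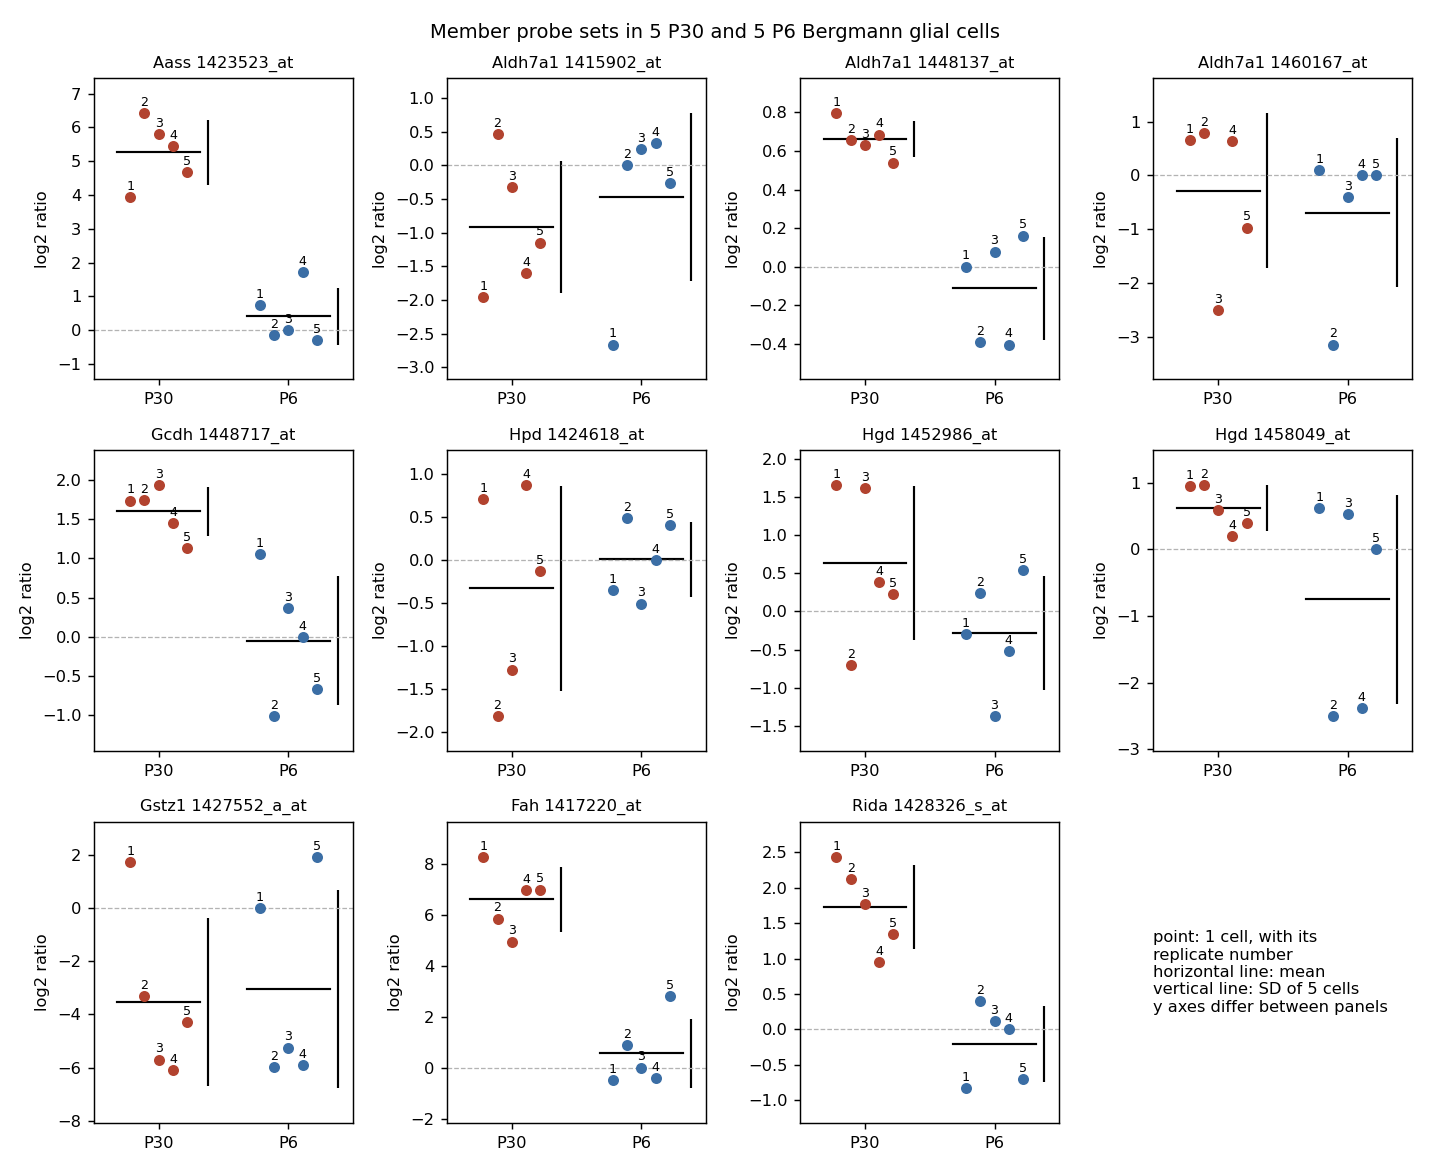
Log2 ratio of each of the 11 member probe sets in the 5 P30 cells (red, left) and 5 P6 cells (blue, right), with 1 point per cell numbered by replicate, the mean as a horizontal line and the SD of 5 cells as a vertical line; the y axes differ between panels. The 2 ages do not overlap for Aass, Gcdh, Fah, Rida and Aldh7a1 1448137_at, and overlap in the other 6 panels.

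The promoters of the genes with the largest differences, and of Gcdh from the same lysine route as Aass, are shown for the sequence before their start sites. Aldh7a1 was left out of this search by its chromosome, and 6 of the other members had a RefSeq promoter on GRCm38.p6. The 250 bases before the start are given for 3 of them, 5′ to 3′ on the gene's own strand, with matches to the searched motifs in capitals. Fah lies at chr7:84605943-84606192, Aass at chr6:23132987-23133236 and Gcdh at chr8:84893922-84894171, all on the minus strand.
Fah: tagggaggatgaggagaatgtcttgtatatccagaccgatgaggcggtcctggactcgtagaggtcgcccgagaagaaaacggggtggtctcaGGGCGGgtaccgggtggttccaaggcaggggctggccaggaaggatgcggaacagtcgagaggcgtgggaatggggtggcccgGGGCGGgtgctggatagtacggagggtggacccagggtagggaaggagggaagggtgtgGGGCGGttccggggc
Aass: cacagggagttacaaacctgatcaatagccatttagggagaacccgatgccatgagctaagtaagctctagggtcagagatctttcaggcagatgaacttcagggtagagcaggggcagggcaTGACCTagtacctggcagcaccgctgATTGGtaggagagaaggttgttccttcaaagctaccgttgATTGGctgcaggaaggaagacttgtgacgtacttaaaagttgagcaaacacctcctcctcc
Gcdh: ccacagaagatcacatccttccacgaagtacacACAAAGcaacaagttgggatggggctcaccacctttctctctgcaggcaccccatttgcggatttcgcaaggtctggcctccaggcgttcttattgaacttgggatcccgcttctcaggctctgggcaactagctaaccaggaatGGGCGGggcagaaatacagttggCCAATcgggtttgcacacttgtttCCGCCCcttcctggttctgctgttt
The motifs were searched on both strands and no 2 matches overlapped: the TATA box TATAAA (held by 12.4% of all 32851 promoters of this length), the CCAAT box CCAAT (33.8%), the GC box GGGCGG (32.7%), the E-box CACGTG (6.02%), the nuclear receptor motif AGGTCA (14%), the NFI motif TTGGCA (12.3%), the SOX motif ACAAAG (16.5%) and the D-box TTATGNAA (3.07%).

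The Fah promoter was rich in GC, at 64.4% with 16 CpG dinucleotides, against medians of 52.4% and 6 over all promoters, and held 3 GC boxes that began 157, 74 and 15 bases before the start. The Aass promoter had 50% GC and 4 CpG dinucleotides, with 2 CCAAT boxes on the opposite strand, beginning 101 and 61 bases before the start, and 1 match to the nuclear receptor motif at 127 bases. The Gcdh promoter had 53.6% GC and 8 CpG dinucleotides, with 2 GC boxes at 72 and 25 bases, 1 CCAAT box at 49 bases and 1 SOX motif at 217 bases. Fah and Aass had no searched motif in common in these windows. Such matches describe letters and say nothing of what binds there.

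Aass, the entry step of lysine breakdown, had ratios of 15.35, 85.91, 55.89, 43.9 and 25.81 in P30 replicates 1 to 5, against 1.67, 0.903, 1, 3.279 and 0.819 in P6 replicates 1 to 5. The ages did not overlap, and the lowest P30 cell was 4.68 times the highest P6 cell. The mean log2 ratio was 5.26 ± 0.97 at P30 and 0.40 ± 0.83 at P6 (SD, n = 5 cells each), a difference of 4.86. This difference exceeded those of 99.7% of all probe sets. Within an age the cells spread 5.60-fold at P30 and 4.00-fold at P6.

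Gcdh, the mitochondrial dehydrogenase that lysine and tryptophan breakdown share, had ratios of 3.333, 3.342, 3.826, 2.728 and 2.193 at P30, against 2.078, 0.495, 1.292, 1 and 0.629 at P6. The P30 cells were close together, within 1.74-fold of one another, whereas the P6 cells ranged over 4.20-fold. The separation was narrow: P30 replicate 5 was only 1.06 times P6 replicate 1. The mean log2 ratio was 1.60 ± 0.31 at P30 and -0.05 ± 0.82 at P6 (SD, n = 5 cells each), a difference of 1.65. Scaling to the spikes, control transcripts added at hybridization, gave 1.37 and the ratio of arithmetic means 1.49, both under 3-fold, as were 1.57 without P30 replicate 3, 1.41 without P6 replicate 2 and 1.50 without P6 replicate 5.

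Aldh7a1, the dehydrogenase between these steps, was read by 3 probe sets that differed in direction. Probe set 1448137_at gave ratios of 1.736, 1.577, 1.546, 1.607 and 1.453 at P30, against 1, 0.763, 1.056, 0.756 and 1.118 at P6. All P30 cells lay above all P6 cells, but the difference was only 0.77 on the log2 scale, or 1.71-fold. Its pooled SD of 0.20 was lower than that of all but 0.0353% of probe sets.

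Probe set 1415902_at of Aldh7a1 gave 0.258, 1.377, 0.802, 0.33 and 0.451 at P30, against 0.158, 1, 1.178, 1.259 and 0.832 at P6. Here the P30 mean was the lower one, by a log2 difference of -0.44, and the ages overlapped. Probe set 1460167_at gave 1.57, 1.725, 0.176, 1.557 and 0.51 at P30, against 1.072, 0.113, 0.755, 1.001 and 1 at P6. Its ages overlapped as well, with a log2 difference of 0.41 beside a pooled SD of 1.41, and of -0.20 without P6 replicate 2. Averaged over the 3 probe sets, Aldh7a1 differed by 0.25 on the log2 scale, less than its SDs of 0.52 at P30 and 0.55 at P6. Of the lysine route, then, the first enzyme and Gcdh were over 3-fold higher at P30, and the enzyme between them was not.

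On the tyrosine side, Hpd, the dioxygenase that forms homogentisate, had ratios of 1.634, 0.284, 0.414, 1.83 and 0.912 at P30, against 0.785, 1.399, 0.704, 1 and 1.323 at P6. The P30 cells surrounded the P6 cells, with 2 above all of them and 2 below all of them. The log2 difference was -0.33, less than the SD of 1.19 among the P30 cells, and was 0.037 without P30 replicate 2.

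Hgd, the ring-opening dioxygenase that is deficient in alkaptonuria, was read by a pair of probe sets. Probe set 1452986_at gave 3.15, 0.614, 3.065, 1.301 and 1.171 at P30, against 0.815, 1.185, 0.386, 0.699 and 1.46 at P6. Probe set 1458049_at gave 1.937, 1.957, 1.51, 1.148 and 1.311 at P30, against 1.532, 0.176, 1.44, 0.192 and 1 at P6. In both, the P30 mean was higher and the ages overlapped: 2 of 5 P30 cells lay above the highest P6 cell in each. The log2 differences were 0.91 and 1.37, and the gene average was 1.14, or 2.21-fold. For 1458049_at 3 P6 cells lay between 1 and 1.532 and 2 at 0.176 and 0.192, and its difference passed 3-fold without P6 replicate 1, at 1.71, without P6 replicate 3, at 1.69, or without replicate 5 of both ages, at 1.62.

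Gstz1, the isomerase before Fah, varied most between cells of 1 age. Its probe set gave 3.269, 0.101, 0.0192, 0.0145 and 0.051 at P30, against 1, 0.0157, 0.0262, 0.0167 and 3.779 at P6. In each age most cells were at 0.101 or below and 1 or 2 cells were at 1 or above, so that the highest cell was 225 times the lowest at P30 and 241 times at P6. The pooled SD of 3.45 exceeded that of 98.5% of probe sets. The log2 difference of -0.49 was small beside it and depended on single cells: without P30 replicate 1 it was -1.81, past 3-fold lower, and without P6 replicate 5 it was 0.75. It was also above 0 without P30 replicate 3 (0.047), P30 replicate 4 (0.15) or P6 replicate 1 (0.27).

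Fah, whose loss in humans causes hereditary tyrosinemia, had ratios of 309.6, 57.64, 30.75, 124.4 and 126.7 at P30, against 0.719, 1.834, 1, 0.756 and 6.955 at P6. The ages did not overlap, and the lowest P30 cell was 4.42 times the highest P6 cell. P6 replicate 5 stood above the other P6 cells, which lay between 0.719 and 1.834. The mean log2 ratio was 6.60 ± 1.26 at P30 and 0.56 ± 1.36 at P6 (SD, n = 5 cells each), a difference of 6.04 that exceeded those of 99.9% of all probe sets. Only this last step of the tyrosine route was over 3-fold higher at P30: Hpd, Hgd and Gstz1 before it gave gene averages of -0.33, 1.14 and -0.49.

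Rida, the imine deaminase, had ratios of 5.413, 4.36, 3.406, 1.928 and 2.54 at P30, against 0.563, 1.321, 1.089, 1 and 0.614 at P6. The lowest P30 cell was 1.46 times the highest P6 cell. The mean log2 ratio was 1.72 ± 0.60 at P30 and -0.20 ± 0.54 at P6 (SD, n = 5 cells each), a difference of 1.93. The name of this probe set, 1428326_s_at, marks probes that can match transcripts of more than 1 gene, so its reading is less certain than the others.

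**Figure D2:**
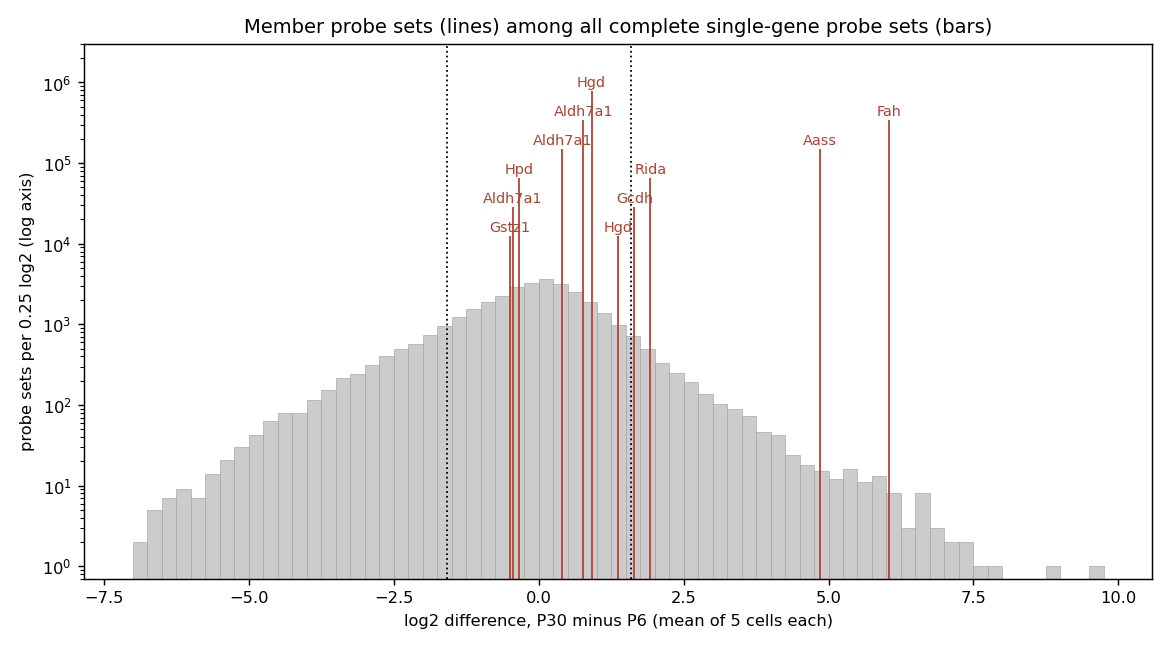
Number of complete single-gene probe sets (gray bars, log axis) at each log2 difference, P30 minus P6, in steps of 0.25, with the 11 member probe sets as red lines whose heights serve only to separate the names; dotted lines mark 3-fold. Fah at 6.04 and Aass at 4.86 lie in the right tail, Rida at 1.93 and Gcdh at 1.65 just beyond the dotted line, and the other 7 within it.

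Over the 11 probe sets the median log2 difference was 0.91, beside -0.05 over all probe sets. By gene, 4 of 8 members were over 3-fold higher at P30, against 4.93% of all genes, and 0 of 8 over 3-fold lower, against 9.39%. The mean was higher at P30 for 6 of 8 members and for 47.6% of all genes. The median pooled SD of the member probe sets was 0.90, beside 1.25 over all.

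Cells that were high for 1 member were not high for all. Among the P30 cells, replicate 1 had the highest Fah and Rida ratios but the lowest Aass ratio, and replicate 2 had the highest Aass ratio with the next to lowest Fah ratio. When each cell was taken relative to the mean of its age, Pearson's r between Fah and Aass was -0.76 over the 10 cells. Fah went with Hpd (r = 0.70), and Aldh7a1 1448137_at with Hgd 1458049_at (r = 0.90). These are the extremes and 1 other of 51 pairs of probe sets of different genes, whose median r was 0.01. They rest on 10 cells that share array scaling with each pair, and they are descriptions.

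The 10 cells also differed in markers of other cell types, which were compared as deviations because the ratios hold no levels. In P30 replicate 5, all 12 measured endothelial and pericyte markers were above the median of the other 4 P30 cells, by a median of 3.42 on the log2 scale, 11 of 15 neuron markers were above it, with a median of 1.29, and the 20 astroglia markers had a median of -0.79. In P6 replicate 5, 10 of 15 neuron markers were above the other P6 cells, with a median of 1.33, and the astroglia markers had a median of -0.53. In P30 replicate 4 the oligodendrocyte markers had the highest median of that age, 0.52 with 8 of 12 above, and the endothelial and pericyte markers a median of -0.97. In P30 replicate 5 the oligodendrocyte markers had a median of only 0.14, with 6 of 12 above. Single markers of this list disagreed. Mobp and Cldn11 were high in P30 replicates 4 and 5, with log2 values of 2.61 and 2.96 for Mobp and 6.17 and 3.55 for Cldn11. The other 3 P30 cells had at most 0.12 for Mobp and -0.69 for Cldn11. Cnp and Olig1 were instead lowest in P30 replicates 4 and 5, at 0.75 and 0.86 for Cnp and -1.58 and -0.49 for Olig1. P30 replicate 5 also had a median ratio over its array of 0.726, against 0.913 to 0.934 in the other P30 cells, and scaling by array medians gave Gcdh a difference of 1.81. P30 replicate 5 had the lowest Gcdh ratio of its age, the next to lowest Aass ratio and the next to highest Fah ratio, and P6 replicate 5 had the highest Fah ratio of its age. Without replicate 5 of both ages the log2 differences were 6.51 for Fah, 4.83 for Aass, 1.90 for Rida and 1.61 for Gcdh, all still over 3-fold. Hgd 1458049_at became the fifth probe set past 3-fold, at 1.62, and Gstz1 was at 0.94 in place of -0.49, while the other 5 stayed within 3-fold. Between the ages the marker lists had median log2 differences of 0.30 for astroglia, -0.26 for neurons, 0.50 for oligodendrocytes, -0.23 for microglia and 0.42 for endothelial cells and pericytes.

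**Figure D3:**
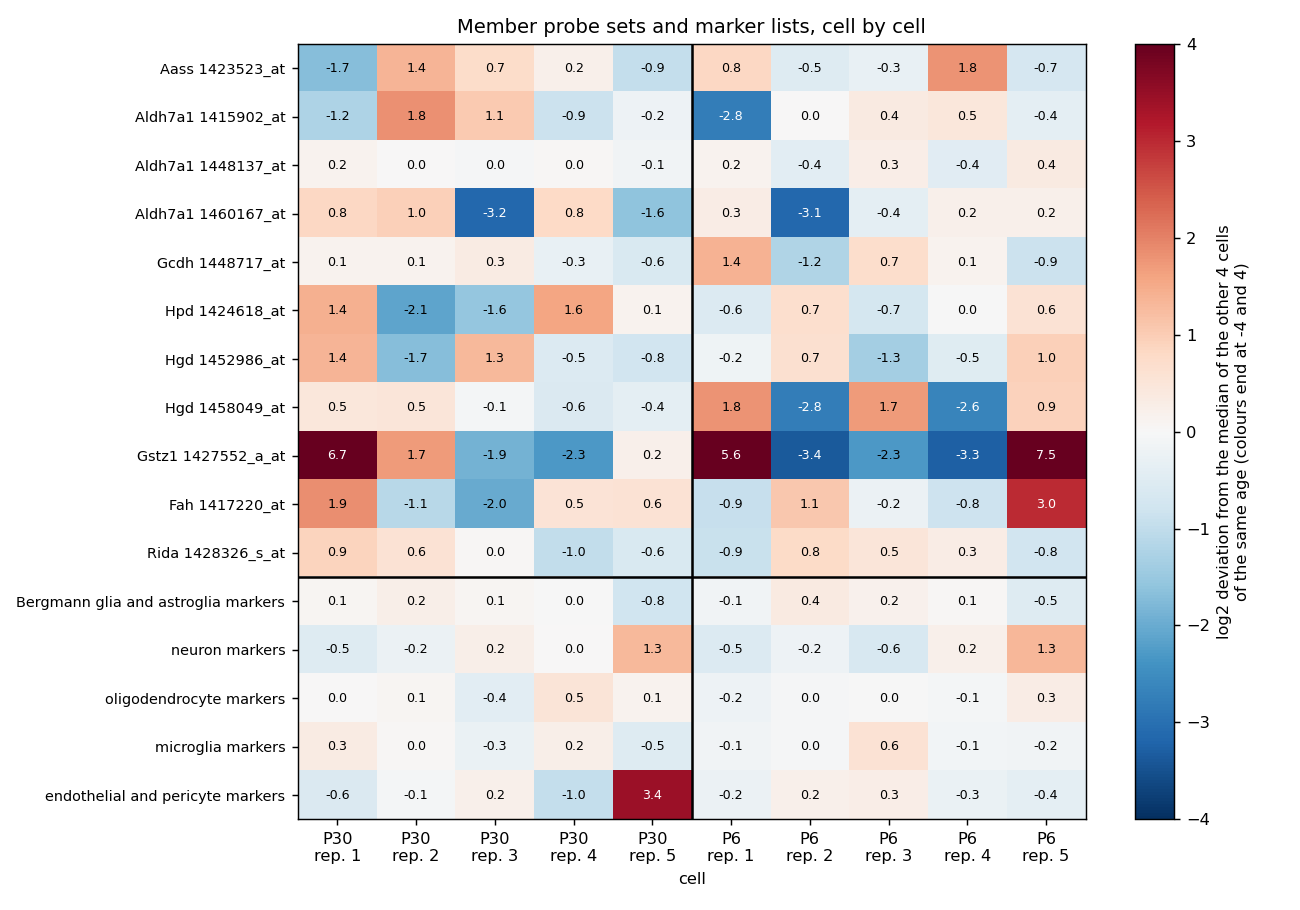
Log2 deviation of each cell (5 P30 cells left of the line, 5 P6 cells right) against the median over the remaining 4 cells at that age, for the 11 member probe sets and, below the line, the median over each of 5 marker lists; colors end at -4 and 4. Gstz1 swings most, P30 replicate 5 stands out for endothelial and pericyte markers at 3.42, and Fah and Aass deviate in opposite directions in P30 replicates 1, 2, 3 and 5.

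The other genes of the lysine route mostly stayed within 3-fold, as did most genes on the array. Aass and Gcdh were chosen with their differences known, so nothing is read from a contrast with them. Of 17 measured, 1 was over 3-fold higher at P30 and 0 were over 3-fold lower, with a median log2 difference of -0.35. Over all genes 4.93% were over 3-fold higher and 9.39% over 3-fold lower, with a median of -0.05. These shares stand beside the counts of every list below as well. The exception was Pipox, the peroxisomal oxidase of pipecolate and sarcosine, with ratios of 136.5, 4.835, 73.69, 5.71 and 8.282 at P30, against 0.866, 0.979, 1.021, 3.373 and 0.378 at P6. It was 18.4-fold higher with no overlap, and 11.2-fold without P30 replicate 1. Apart from Gcdh, enzymes that lead from aminoadipate to acetyl-CoA lay within 3-fold as gene averages. Dhtkd1 differed by -1.22, Dlst by 0.22, Hadh by 0.03 and Acat1 by -1.28 on the log2 scale. The Dlst average joins probe sets that disagreed: 1437775_at was at 3.51 with overlapping ages, and the others at -1.16, -1.27 and -0.18. Acat1 1451271_a_at was just past 3-fold lower, at -1.59.

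Of 13 other measured genes of phenylalanine and tyrosine metabolism, 1 was over 3-fold higher at P30 and 2 were over 3-fold lower, with a median log2 difference of 0.03. Dnajc12, a co-chaperone of the aromatic amino acid hydroxylases, had ratios of 11.01, 0.284, 0.359, 7.169 and 127.6 at P30, against 0.51, 0.835, 1.165, 0.266 and 0.134 at P6. Its mean was 8.97-fold higher with overlapping ages and an SD of 3.69 at P30 that exceeded the log2 difference of 3.17, and single P30 cells moved it, to 3.77-fold without replicate 5, 17.4-fold without replicate 2 and 16.4-fold without replicate 3. Without replicate 5 of both ages it was 2.79-fold. Slc7a5, a carrier of large neutral amino acids, differed by -3.29, with 1 P30 value at the floor of 0.01, and the cytosolic aspartate aminotransferase Got1 by -2.81. Slc7a5 ran to -2.62 without P30 replicate 4, -4.10 without P30 replicate 2 and -4.01 without P6 replicate 2, and Got1 to -2.08, -3.86 and -3.44 without P30 replicates 5, 1 and 3. The ages overlapped for both genes. Tat, the transaminase that opens the tyrosine route in liver, differed by 0.77.

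Amino acid oxidases and dehydratases whose reactions can form imines made a list of 7 measured genes. The dehydratases Sds and Sdsl were listed but not measured. Of the 7, 4 were over 3-fold higher at P30 and 0 over 3-fold lower, with a median log2 difference of 2.45. Srr, Il4i1 and Prodh2 differed by only 0.13, 0.25 and 0.69. Whether the enzymes of this list supply RIDA was not tested. This list was also drawn up with results of these cells known, and 3 of its genes, Pipox, Prodh and Prodh2, stand in other lists as well. Dao, the D-amino acid oxidase, had ratios of 46.23, 92.89, 13.72, 20.68 and 50.27 at P30, against 0.344, 1, 1.595, 0.912 and 1.292 at P6, a 39.4-fold difference with no overlap. Its probe set, 1420709_s_at, also carries the mark of shared probes. Prodh, the first enzyme of proline breakdown, had 43.03, 66.81, 62.63, 12.05 and 18.4 at P30, against 1.73, 1.456, 0.866, 0.663 and 1 at P6, a 30.8-fold difference with no overlap. Ddo, the D-aspartate oxidase, averaged 5.47-fold higher over 3 probe sets, and its ages overlapped; without P6 replicate 1 it was 8.23-fold. Without probe sets of shared probes the median of the list was 1.57.

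**Figure D4:**
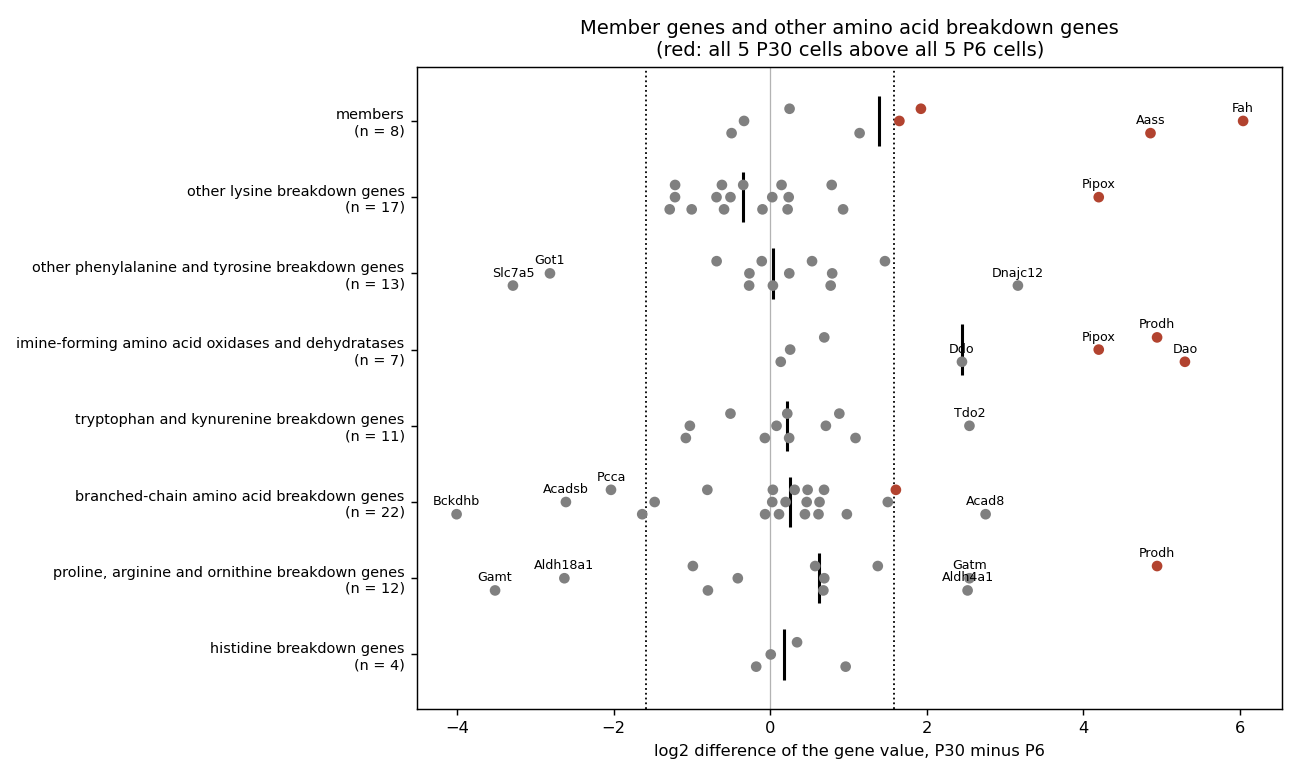
Log2 difference of each measured gene, P30 minus P6 (means of 5 cells each), for the 8 members and 7 lists of genes of amino acid metabolism, with the median of each list as a black bar, 3-fold as dotted lines, and genes in red where all P30 cells lie above all P6 cells. Fah, Dao, Prodh, Aass and Pipox lie farthest right, and the other lysine breakdown genes apart from Pipox lie within 3-fold.

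Among 11 tryptophan and kynurenine genes, 1 was over 3-fold higher at P30 and 0 over 3-fold lower, with a median log2 difference of 0.22. The one was Tdo2, the tryptophan dioxygenase, whose 5.84-fold averages 1419093_at at 26.3-fold and 1449337_at at 1.30-fold. On 1419093_at P30 replicate 4 was at 0.287, against 31.26 to 165.3 in the other P30 cells, so the ages overlapped, and without that cell the gene was 10.5-fold higher. Among 22 genes of branched-chain amino acid breakdown, 2 were over 3-fold higher and 4 over 3-fold lower, with a median of 0.25. There Bckdhb, a subunit of the branched-chain ketoacid dehydrogenase, differed by -4.01, with every P30 cell below every P6 cell and 1 P30 value at the floor, and by -3.34, -4.68 and -4.76 without P30 replicates 4, 2 and 5. Acad8 was 6.74-fold higher with overlapping ages, an average of 1419261_at at 4.45-fold and 1419262_at at 10.2-fold. Its log2 difference of 2.75 was 3.46 without replicate 5 of both ages, 2.27 without P30 replicate 3 and 2.21 without P6 replicate 2. Acadsb differed by -2.61, with 1 P30 value at the floor, and by -1.68 and -3.52 without P30 replicates 3 and 1. Pcca differed by -2.03, and by -2.68 without P30 replicate 4. The ages overlapped for both Acadsb and Pcca.

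Among 12 genes of proline, arginine and ornithine metabolism, 3 were over 3-fold higher and 2 over 3-fold lower, with a median of 0.63. The list is not confined to breakdown: Gatm and Gamt serve creatine synthesis and Aldh18a1 proline synthesis. Both genes on its lower side, Gamt and Aldh18a1, are of this kind. That median rested on single cells: it was 0.19 without P30 replicate 2, 0.23 without P30 replicate 1 and 0.24 without P6 replicate 3. Besides Prodh, Gatm, which makes the creatine precursor guanidinoacetate, was 5.84-fold higher, while Gamt, the next enzyme toward creatine, differed by -3.52 and Aldh18a1 by -2.63, with 4 P30 values at the floor over the 5 probe sets of Aldh18a1. Gatm was 3.65-fold, 9.16-fold and 8.93-fold higher without P30 replicates 4, 1 and 3 and 10.3-fold without P6 replicate 5, Gamt differed by -2.92 without P6 replicate 4, and Aldh18a1 by -3.82 without P30 replicate 4. Among 4 histidine genes 0 passed 3-fold either way, and the largest difference was 0.96, in Uroc1. The tyrosine, branched-chain and proline lists held genes over 3-fold apart on both sides. So did all genes, at 4.93% higher and 9.39% lower, and nothing is read from these counts.

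The genes whose cell-to-cell pattern was most like that of a member were taken by Pearson's r over the 10 cells among 17918 other genes. For Fah they were Lgi4 (r = 0.96), Nbl1 (0.95), S100a10 (0.94), Gjb6 (0.94) and Ttpa (0.94). For Aass they were Plcd4 (0.98), 4931414P19Rik (0.95), Tuba4a (0.95), Epb41l1 (0.94) and Ank2 (0.94). Gcdh was nearest to She (0.97), 4930488N24Rik (0.96), Shisa5 (0.95), Tmem47 (0.94) and Tex26 (0.94), and Rida to Exoc3l4 (0.98), Greb1 (0.97), Chst10 (0.95), Tppp3 (0.94) and Ltb (0.94). No gene stood in more than 1 of these lists, and no member was among the nearest genes of another. The 10 cells fall into 2 ages for each of these members, so r can be high for any gene that differs between the ages in the same direction.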

How the data were processed

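Single-cell cDNA from 5 P30 and 5 P6 Bergmann glia was hybridized to 1 Affymetrix array per cell. The authors summarized probe sets by RMA and, in GeneSpring GX, raised values under 0.01 to 0.01, divided by the array's median and then by a median for the probe set. The deposited values are these ratios, in 1 table of 10 columns. No scanner intensities were used here, and arrays have no read depth. Their number, 5 per age, limits the precision.

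Probe sets were named through the platform annotation given with the series: 34958 of 45101 had 1 gene, 932 several and 9211 none, and 1493 with a blank were left out. The 10 ratios under 0.01 were set to 0.01 and log2 was taken. A difference is the mean of 5 P30 cells minus that of 5 P6 cells, a fold is 2 to that power, and a gene is the mean of its probe sets. Over 3-fold and complete separation of the ages described size. No test between the ages was run, as each age is 1 sample. Dixon's ratio served only to flag single cells within an age.

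The members and all lists were chosen with earlier results of these data known. The genes named were the 8 members, up to 4 genes per list with the largest difference over 3-fold (the largest 1 where none passed), and the 5 genes nearest to each member that was over 3-fold apart without overlap. Tat, Dhtkd1, Dlst, Hadh, Acat1, Prodh2, Srr, Il4i1, Bcat2, Dbt, Mobp, Cldn11, Cnp and Olig1 were added after their values were seen. Alternatives were scaling by array medians or hybridization spikes, a floor of 0.1, medians, arithmetic means, dropping shared-probe sets, a 2-fold rule, Spearman's rho, centering on age and leaving out each cell. Python 3.11.15, NumPy 2.4.6, pandas 2.3.3 and Matplotlib 3.10.9 were used, and the scripts were tested on simulated data.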

Additional observations from a re-analysis of the deposited data

Results flagged for a closer look

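In 22 groups of 5 cells (11 probe sets at 2 ages), 2 had a cell far from the other 4 by Dixon's ratio, both in Aldh7a1 at P6. Chance gives about 1 such group in 20. For probe set 1415902_at, P6 replicate 1 had a ratio of 0.158, against 0.832 to 1.259 in the other 4 P6 cells. For probe set 1460167_at, P6 replicate 2 had a ratio of 0.113, against 0.755 to 1.072 in the other 4. The low cell was a different one in each probe set, and neither was low in 1448137_at to a like degree, at 1 in replicate 1 and 0.763 in replicate 2.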

How the results depend on the processing

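Fah (5.63 to 6.96), Aass (4.57 to 5.46) and Rida (1.65 to 2.12) kept log2 differences over 3-fold in every setting run that held their probe sets, and Gcdh (1.37 to 1.93) did in 12 of 17. The count of member probe sets over 3-fold higher ran from 3 to 5 and that with the ages apart from 4 to 5. The count over 3-fold lower was 0 in all settings except without P30 replicate 1, where Gstz1 made it 1, a range of 0 to 1 over the cells left out. Of 271 other values for single probe sets and lists, 8 moved by more than the spread between cells, 5 of them the median of the proline, arginine and ornithine list. Of 18 list genes over 3-fold, 13 moved by over 1.5 times without 1 cell and 2 (Bcat2 and Dbt) came under 3-fold, with 0 changes of sign. No value over 3-fold changed sign, but Gstz1 did in 6 settings and Hpd and Aldh7a1 1460167_at in 1 each, and so did the list medians of the phenylalanine and tyrosine genes in 3, histidine in 2, and tryptophan and branched-chain in 1 each. Likeness between members depended on the ages: r over the 10 cells was 0.80 for Aass with Fah, 0.85 for Aass with Gcdh, 0.82 for Aass with Rida, 0.66 for Gcdh with Fah, 0.70 for Gcdh with Rida and 0.82 for Fah with Rida. Centered on age these became -0.76, 0.36, -0.11, -0.58, -0.13 and -0.045, and Spearman's rho was 0.54 for Aass with Fah and 0.72 for Aass with Rida. Leaving out replicate 5 of both ages, and each cell for the list genes, was chosen after seeing the data. Scaling by array medians moved all differences by 0.16 and spike scaling by -0.28 on the log2 scale. No paired analysis was possible because the replicate numbers are on unrelated single cells of 2 ages, and no test between the ages was made. Signal over background could not be read from ratios. The paper lists the probe sets of Fah, Aass, Prodh and Dao as present at P30 but absent at P6. Their P6 values may therefore lie near background, which limits what the size of their folds can mean.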
